A study of Homo sapiens with 4 samples.

Results

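The zinc finger genes of chromosome 19 were followed through 4 iiCLIP libraries of PR100-FLAG, the C9orf72 proline-arginine dipeptide repeat protein. The genes were chosen by annotation alone, as the protein-coding GENCODE genes of chromosome 19 whose name is ZNF followed by digits only. There were 240 such genes among the 1476 protein-coding genes of the chromosome and the 20046 of the genome. For comparison, the other 1236 protein-coding genes of chromosome 19 and the 236 ZNF genes of other chromosomes were counted in the same way.

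A classical zinc finger is a short fold in which a pair of cysteines and a pair of histidines hold a zinc ion, and proteins of this family string many fingers together through short conserved linkers to read DNA. On chromosome 19 these genes lie in tandem arrays that arose by repeated duplication, so that their coding sequences resemble one another. Many of the proteins carry a KRAB domain, which binds TRIM28 and brings the SETDB1 methyltransferase to retrotransposons. In most of these genes a single long last exon encodes the whole finger array.

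All libraries belonged to 1 condition. HEK293T cells, a transformed human embryonic kidney line, were transiently transfected with a plasmid for PR100 with a triple FLAG tag, induced with doxycycline at 150 ng/ml for 24 h and irradiated with UV light of 254 nm at 160 mJ/cm2. Complexes were isolated by SDS-PAGE in replicates 1 to 3 and on beads in replicate 4, and the random barcode had 7 nt except in replicate 3, where it had 5 nt. The FLAG, GA100 and non-crosslinked controls were not analysed here, so background binding was not subtracted, and RNA abundance was not measured, so that fewer transcripts and less binding per transcript cannot be told apart. No label says that the replicates came from separate cultures.

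The value at each position is the number of unique cDNAs that end beside it, called crosslink events below. Libraries held 334057, 604816, 125694 and 179636 events in replicates 1 to 4, and the lists of replicates 3 and 4 as used here fall short of the minimum depth per sample that the study's methods state. Levels are given as CPM, events scaled to the total of the library, and densities as CPM per kb of region. Replicate 3 was the thinnest for these genes. Its 367 events in the 240 genes lay on 128 positions, at 2.87 cDNAs per position, against 1.03 to 1.53 in the other libraries. Of the HEK293T markers NEFM, NEFL, VIM, INA and KRT18, the first had 1426 pooled events and KRT18 had 1, and markers of blood, liver, T cells and islets (HBB, HBA1, ALB, CD3E, INS) had 0 to 2.

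The chromosome 19 ZNF genes together held few crosslinks. They received 1488, 2002, 367 and 725 events in replicates 1 to 4, which was 0.445%, 0.331%, 0.292% and 0.404% of the library (mean 0.368% ± 0.0693, SD, n = 4). The pooled median was 11 events per gene with quartiles of 3 and 23, against 15 for the remaining protein-coding genes, 9 for the other genes of chromosome 19 and 26 for ZNF genes elsewhere. Events were seen in every library for 67 genes, and 70 genes reached 20 pooled events. No event was found in 14 genes, which allows up to 3 events or 2.41 CPM in the pooled data by counting error alone. ZNF208, whose 36 fingers are the most of the 240, was one of the genes without an event.

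Among the 240, only ZNF536 passed the minimum of 200 pooled events used for gene lists in this study, which was 1 of 240 genes (0.417%). Among all protein-coding genes 3.51% passed it, among the other genes of chromosome 19 it was 3.88% and among ZNF genes elsewhere 1.69%. ZNF536 did not reach the minimum once replicate 1 or replicate 2 was left out, or when each position was counted once.

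Introns held the largest pooled share of events. The 4582 pooled events comprised 2098 in introns (45.8%), 1132 in the coding sequence (CDS, 24.7%), 1007 in 3′ UTRs (22%), 251 in 5′ UTRs (5.48%) and 94 in other exons. Introns held 801, 828, 232 and 237 events in replicates 1 to 4, the CDS 298, 557, 55 and 222, and the 3′ UTRs 304, 443, 51 and 209. The intron share varied from 32.7% in replicate 4 to 63.2% in replicate 3. In the other genes of chromosome 19 the pooled CDS share was 36.0% and the 3′ UTR share 9.46%.

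Per length, CDS, 5′ UTR and 3′ UTR were each denser than introns in every library, but the CDS density was low beside that of the other classes. Over all transcripts of a gene, the mean was 1.89 CPM per kb in the CDS, 1.63 in the 5′ UTR, 1.28 in the 3′ UTR and 0.277 in introns. In replicate 3 the 5′ UTR (1.53) exceeded the CDS. Their CDS had 1.94, 2.0, 0.951 and 2.69 CPM per kb in replicates 1 to 4. The other chromosome 19 genes had 4.35, 6.98, 5.74 and 11.3 CPM per kb of CDS, and ZNF genes elsewhere 4.82, 5.80, 4.70 and 8.91, so neither class overlapped the chromosome 19 ZNF genes. In 3′ UTRs the chromosome 19 ZNF genes had 1.45, 1.17, 0.648 and 1.86 CPM per kb, and ZNF genes elsewhere had 2.22, 2.01, 1.15 and 2.35, higher in each library though the ranges overlapped. Intron densities were 0.383, 0.219, 0.295 and 0.211 CPM per kb, against 0.704, 0.561, 0.807 and 0.738 in other genes of the chromosome. In ZNF genes elsewhere they were 0.562, 0.378, 0.418 and 0.334, a range that overlapped. Over all protein-coding genes they were 0.370, 0.258, 0.300 and 0.232, close to those of the chromosome 19 ZNF genes. These differences in density were not tested.

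**Figure D1:**
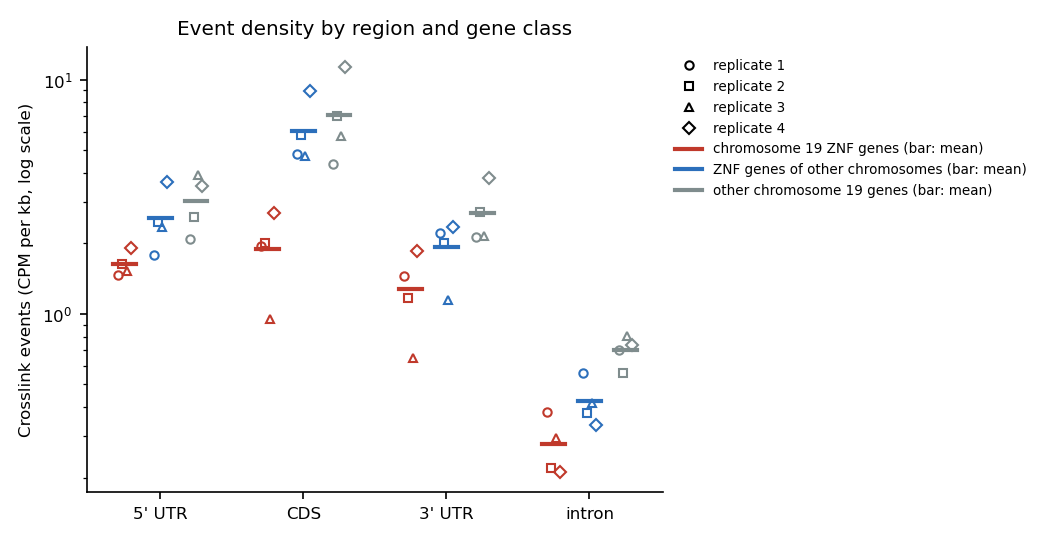
Crosslink events in CPM per kb on a log scale by region for the chromosome 19 ZNF genes, ZNF genes of other chromosomes and other chromosome 19 genes; points are libraries and bars are means. In the CDS the chromosome 19 ZNF genes lay between 0.951 and 2.69 CPM per kb in the 4 libraries, below every library of the other classes.

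The 12 genes with the most events held 1306 of the 4582 (28.5%), and they differed in where the events lay. ZNF536 (chr19:30224891-30713586, plus strand), a brain-enriched repressor of neuronal differentiation, led with 99, 107, 16 and 39 events in replicates 1 to 4, or 204 CPM ± 71.5 (SD, n = 4). Of its 261 events, 229 were intronic and spread over 160 positions, 26 were in the CDS and 4 in the 3′ UTR. Its introns sum to 478386 nt, so their pooled density of 0.479 events per kb was far below the 6.25 events per kb of its CDS.

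ZNF146 (chr19:36214602-36238771, plus strand), a protein made almost wholly of fingers, had 56, 89, 8 and 33 events in replicates 1 to 4 (141 CPM ± 53.4). Its 186 events fell on all parts of the transcript, with 25 in the CDS, 52 in the 3′ UTR, 47 in the 5′ UTR and 56 in introns. With 28.4 events per kb in the CDS and 35.8 in the 3′ UTR, its CDS and 3′ UTR were the densest of the 12, and none of its 25 CDS events came from replicate 3.

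Intronic events led in ZNF787 (84 of 115), ZNF627 (75 of 93) and ZNF235 (69 of 75). ZNF627 had 41.9, 52.9, 223 and 106 CPM in replicates 1 to 4, and its highest value, that of replicate 3, came from introns, where all 28 events of that library lay. ZNF787 had 123, 72.7, 111 and 89.1 CPM. ZNF235 had 77.8, 52.9, 55.7 and 55.7 CPM, so that replicate 1 stood above the others.

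In another set of genes the 3′ UTR held more events than any other region. ZNF121 had 70 of 101 events there, on 50 positions, and its level was 123, 74.4, 0 and 83.5 CPM in replicates 1 to 4. ZNF8 had 49 of 78 events in the 3′ UTR, ZNF587 47 of 71, ZNF714 42 of 89 and ZNF431 31 of 76. These 3′ UTRs are long, up to 12022 nt in ZNF431, so the counts translate into densities of 2.58 events per kb in ZNF431 to 12.5 in ZNF121. In ZNF121 the CDS had 12.8 events per kb, close to its 3′ UTR, and in ZNF587 the CDS had 6.94 against 9.44. The CDS was denser than the 3′ UTR in ZNF431 (10.8 against 2.58), ZNF714 (11.0 against 6.23) and ZNF8 (11.6 against 6.75). All 78 events of ZNF8 also lay in another annotated gene, so their source gene is uncertain.

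In a set of genes with fewer events the CDS held more of them than any other region. ZNF865, which has 20 fingers in a single coding exon, had 37 of its 39 events in the CDS and 0 in its 3′ UTR of 471 nt. Its CDS counts were 4, 21, 5 and 7 in replicates 1 to 4, on 23 positions, or 11.6 pooled events per kb. It was the sole gene with at least 30 CDS events. ZNF574 had 26 CDS events of 37 in all, 21 of them in replicate 2 and 0 in replicate 3. ZNF526 had 24 of 37, with 8, 11, 1 and 4 in replicates 1 to 4. ZNF473, which takes part in histone pre-mRNA processing, had 23 CDS events of 41, and 17 of those came from replicate 2. ZNF274, a KRAB protein that directs SETDB1 to the 3′ ends of other zinc finger genes, had 22 CDS events, 16 of them from replicate 2. ZNF317, with CDS counts of 7, 9, 0 and 7, was not of this kind, since its 23 CDS events stood beside 27 in the 3′ UTR and 33 in introns. ZNF507 likewise had 18 in the CDS, 19 in the 3′ UTR and 26 in introns. Single libraries thus carried much of the CDS signal of a gene, with replicate 2 being the deepest.

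**Figure D2:**
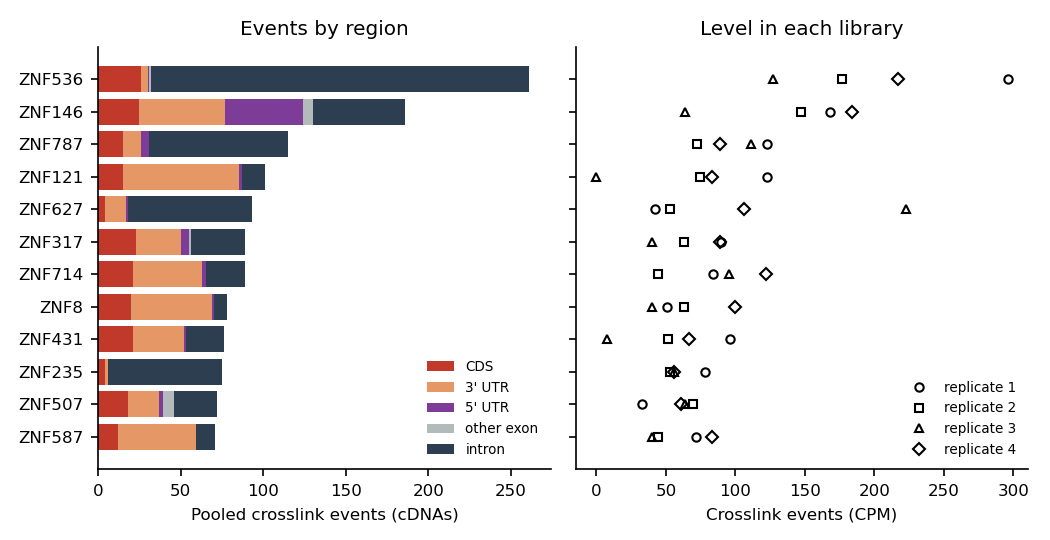
The 12 chromosome 19 ZNF genes with the most events, as pooled cDNAs split by region (left) and as CPM in each library (right). ZNF536, ZNF787, ZNF627 and ZNF235 were mostly intronic, whereas ZNF121, ZNF8 and ZNF587 were mostly 3′ UTR, and replicate 3 held the extreme value of ZNF627 (223 CPM) and 0 in ZNF121.

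The order of genes was shared in part between libraries. Spearman correlations of counts over the 240 genes were 0.73, 0.67 and 0.71 between replicates 1, 2 and 4, and 0.29 to 0.35 with replicate 3. Over the 70 genes with at least 20 events they were 0.27, 0.49 and 0.59, and 0.10 to 0.36 with replicate 3. These values describe libraries that share gene lengths, and low counts limit them.

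Few of these genes held a significant cluster, that is, a group of positions that the authors called at a false discovery rate below 0.05. Only clusters of at least 10 cDNAs were counted, in every class of genes. The summit of a pooled cluster lay in 11 of 240 genes (4.58%), against 11.3% of all protein-coding genes, 12.9% of other genes of chromosome 19 and 12.3% of ZNF genes elsewhere. Of the 11 clusters, 7 had their summit in an intron, 2 in a 3′ UTR, 1 in a non-coding exon and 1 in the CDS, and they summed to 166 cDNAs. With clusters called in single libraries 4 genes had one, and 2 genes kept one at a minimum of 20 cDNAs.

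The largest was intronic, in ZNF627, with 33 cDNAs over 5 nt, of which 0, 11, 15 and 7 came from replicates 1 to 4. ZNF146 followed with 20 cDNAs over 95 nt, from replicates 1, 2 and 4 (4, 13 and 3), and its summit lay in an exon outside the CDS. The clusters of ZNF540 and ZNF549 had 17 cDNAs each, 16 and 14 of them from replicate 2, and that of ZNF888 had 14, of which 12 came from replicate 2. The cluster of ZNF540 also lies in the overlapping ZNF571-AS1 transcript, so its source gene is uncertain.

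The sole CDS cluster so counted was in ZNF570, with 10 cDNAs over 5 nt, of which 9 came from replicate 3 and 1 from replicate 4. Its window is shown because it is the one coding cluster in the 240 genes that passed the authors' threshold and had at least 10 cDNAs. The window starts 5 nt before the summit, its position of most cDNAs, and ends 24 nt after it (chr19:37483925-37483954, GRCh38, plus strand), 5′ to 3′, with GAAGA in capitals, and it precedes the finger array.
ZNF570: tttttatGAAGAacatcaatcccaGAAGAt
It holds 2 copies of GAAGA. The windows of the 3′ UTR clusters and of the largest intron cluster, which were added after their values were seen, hold no GANGA motif, that is, neither GAAGA nor its variants GAGGA and, with C in the middle, GACGA.
ZNF714, 3′ UTR, chr19:21118477-21118506, plus strand: aattcatactggaacgaaaccctacaattg
ZNF587, 3′ UTR, chr19:57862590-57862619, plus strand: aatcttttttcaggggtcacatgcccattt
ZNF627, intron, chr19:11598025-11598054, plus strand: tgtggcttggggatccgttggagggaatgg
These clusters had 11, 10 and 33 cDNAs.

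The CDS was compared with the 3′ UTR of the same genes by events and lengths summed over each class, so that genes with many events weigh most and differences in transcript level between genes do not cancel out. Events per base were higher in the CDS than in the 3′ UTR in every library, but by less than in either comparison class. On the log2 scale this ratio came to 0.42, 0.78, 0.55 and 0.53 in replicates 1 to 4 (mean 0.57 ± 0.15). In the other genes of chromosome 19 it was 1.04, 1.36, 1.42 and 1.58 (1.35 ± 0.23), and in ZNF genes elsewhere 1.12, 1.53, 2.03 and 1.93 (1.65 ± 0.41). Over all protein-coding genes the mean was 1.71 ± 0.31.

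The difference from the other chromosome 19 genes was -0.62, -0.59, -0.87 and -1.04 in replicates 1 to 4 on the log2 scale (mean -0.78 ± 0.22), and that from ZNF genes elsewhere was -0.71, -0.75, -1.47 and -1.39 (mean -1.08 ± 0.41). Both differences were negative in 4 of 4 libraries. Each gave, by an exact permutation test that flips the signs of libraries (two-sided), p = 0.13 and adjusted p = 0.208 over the 10 tests made here. With 4 libraries 0.13 is the smallest p the test can give, so no result could pass 0.05. The ratio within the chromosome 19 ZNF genes had the same p values.

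These genes resemble one another, and the authors kept only reads that mapped to a single place. A unique stretch of 30 nt followed 82.5% of their CDS bases and 80.8% of their 3′ UTR bases, against 94.6% and 88.4% in the other genes of chromosome 19. Counting only bases followed by a unique stretch, the difference from the other chromosome 19 genes was -0.64 and that from ZNF genes elsewhere -0.97. The ratio within each gene was taken as well. As a median over genes with at least 20 events in both regions together, which left 29 ZNF genes of chromosome 19, the ratio was 0.34 with p = 0.25 in the exact permutation test, and the difference from the other chromosome 19 genes was -0.41. For this median 0.5 was added to each count. A gene without events in a library, such as ZNF121 in replicate 3, thus takes its value there from the region lengths alone, which limits this check.

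**Figure D3:**
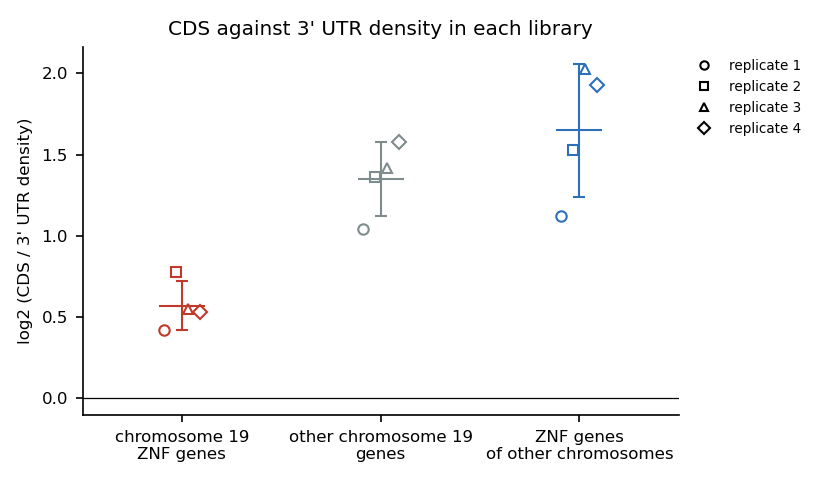
Log2 ratio of event density in the CDS to that in the 3′ UTR in each library for the 3 gene classes; bars are mean and SD over 4 libraries. The chromosome 19 ZNF genes lay between 0.42 and 0.78, below every value of the other classes.

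Gene by gene, CDS density exceeded 3′ UTR density in every library in 4 of 29 genes (13.8%), namely ZNF536, ZNF526, ZNF865 and ZNF8. Among all protein-coding genes with as many events 28.3% did so, and so did 30.9% of other genes of chromosome 19 and 23.7% of ZNF genes elsewhere. The tested genes had a median of 35 events in both regions among the 29 and 37 among all. The reverse in every library was seen in 0 of the 29 and in 0.542% of all genes. Each call needs an event in every library, and the count was 11 genes without replicate 3 and 1 without replicate 2. Replicate 3 had only 55 CDS and 51 3′ UTR events in the 240 genes. The shares of all protein-coding genes with a library left out are not given. The contrast with 28.3% thus holds only for the 4 libraries together. Every event of ZNF8 also lay in another annotated gene, so the call for ZNF8 is uncertain.

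Introns held the most events and are also long. The 240 genes have 6254 kb of intron and 460 kb of CDS. The log2 ratio of CDS to intron density was 2.34, 3.19, 1.69 and 3.67 in replicates 1 to 4 (mean 2.72 ± 0.88, exact permutation p = 0.13, adjusted p = 0.208). In the other genes of chromosome 19 the mean was 3.26 ± 0.63. The difference was -0.29, -0.44, -1.14 and -0.27 (mean -0.54 ± 0.41), negative in 4 of 4 libraries, with p = 0.13 and adjusted p = 0.208 in the exact permutation test. Without replicate 3 it was -0.33. With significant clusters left out it was -0.18 (exact permutation p = 0.375), and as a median over genes -0.21 (exact permutation p = 0.25). Intron counts had a Spearman correlation of 0.46 with gene length across the 240 genes, which are not independent.

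The exon with the most finger sequence held 958 of the 1100 CDS events of canonical transcripts (87.1%), close to its 85.9% of the coding length. The canonical proteins have 3004 fingers, with a median of 12 per gene. From the first to the last finger, the array had 171, 345, 32 and 124 events in replicates 1 to 4 over 274 kb, and the rest of the CDS 116, 195, 23 and 94 over 160 kb. Densities were 1.87, 2.08, 0.929 and 2.52 CPM per kb in the array and 2.17, 2.02, 1.14 and 3.27 in the rest. The log2 ratio was -0.22, 0.05, -0.30 and -0.38 (mean -0.21 ± 0.18, exact permutation p = 0.25, adjusted p = 0.278). It ranged from -0.47 with a stricter finger pattern to 0.08 with bases in no other gene, so its sign depended on the processing. In ZNF genes elsewhere it was -0.16 ± 0.17. The number of fingers and the pooled CDS events per kb had a Spearman correlation of -0.08 across the 240 genes.

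Along the spliced transcript the mean density lay between 1.75 and 2.39 CPM per kb from the 5′ UTR through the array, was highest in the short CDS after it and lower towards the far end of the 3′ UTR. It was 2.39 CPM per kb ± 0.897 in the 5′ UTR, 2.02 ± 0.984 in the CDS before the array, 1.75 ± 0.803 and 1.95 ± 0.638 in the upstream and downstream parts of the array, and 3.14 ± 0.802 in the CDS after it, which held 76 events. The first 500 nt of the 3′ UTR had 2.07 ± 1.02, the stretch from 500 to 1500 nt 1.47 ± 0.714, and the remainder 1.26 ± 0.410. These parts are those of canonical transcripts, whereas the 5′ UTR mean of 1.63 CPM per kb given above covers all transcripts. The order of 5′ UTR and CDS thus depended on the transcripts counted. Within libraries, the CDS after the array was the densest part in replicates 2 and 3 only, and replicate 2 gave 45 of its 76 events. The first 500 nt of the 3′ UTR were denser than the stretch from 500 to 1500 nt in 4 of 4 libraries. In ZNF genes elsewhere the same parts of the array had 5.56 ± 1.72 and 5.57 ± 1.68 CPM per kb, and the 3′ UTR beyond 1500 nt had 1.5 ± 0.230, so that the classes lay apart in the array and close together at the far end of the 3′ UTR. These values describe the transcripts and were not tested.

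**Figure D4:**
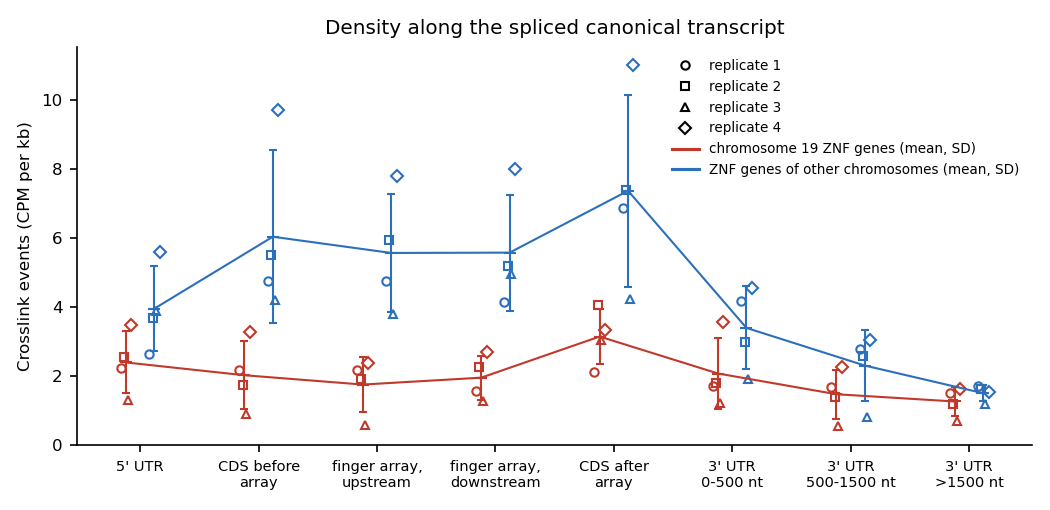
Crosslink events in CPM per kb along the spliced canonical transcript for the chromosome 19 ZNF genes and ZNF genes of other chromosomes; points are libraries, lines and bars are mean and SD. The chromosome 19 ZNF genes had 1.75 and 1.95 CPM per kb in the parts of the finger array against 5.56 and 5.57 in the other class.

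Fingers joined by a linker of 7 residues gave 2538 linkers. The word GAGAA lay in 1842 of them with the next codon (72.6%). The 3 most frequent linker sequences are shown because they repeat the same GA-rich run in many genes, 5′ to 3′ with the next codon and with GAGAA in capitals. They lie in canonical coding exons of chromosome 19 on GRCh38.
Linker in 142 copies in 41 genes: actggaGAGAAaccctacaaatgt
Linker in 59 copies in 20 genes: actggaGAGAAaccttacaagtgt
Linker in 57 copies in 32 genes: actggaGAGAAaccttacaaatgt
They made up 5.59%, 2.32% and 2.25% of the linkers.

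Linkers had a crosslink density close to that of the fingers in replicate 1 and below it in the other libraries. They held 31, 48, 1 and 18 events in replicates 1 to 4 over 53.3 kb, and the rest of the finger 91, 186, 6 and 65 over 160 kb. The log2 ratio of densities was 0.03, -0.37, -1.0 and -0.27 (mean -0.40 ± 0.43, exact permutation p = 0.25, adjusted p = 0.278). The value of replicate 3 rests on 7 events, and without that library the mean was -0.20. With each position counted once it was -0.21. With unique stretches only the mean was -0.19, and in ZNF genes elsewhere it was -0.41 ± 0.66. Over 2495 repeats of 28 residues in 237 genes, 97 of 443 events (21.9%) lay in the 21 nt of the linker, and 120, 120 and 106 lay in the successive 21 nt stretches of the finger. A unique stretch followed 70.2% of linker bases and 86.7%, 86.5% and 69.4% of the bases of those finger stretches.

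**Figure D5:**
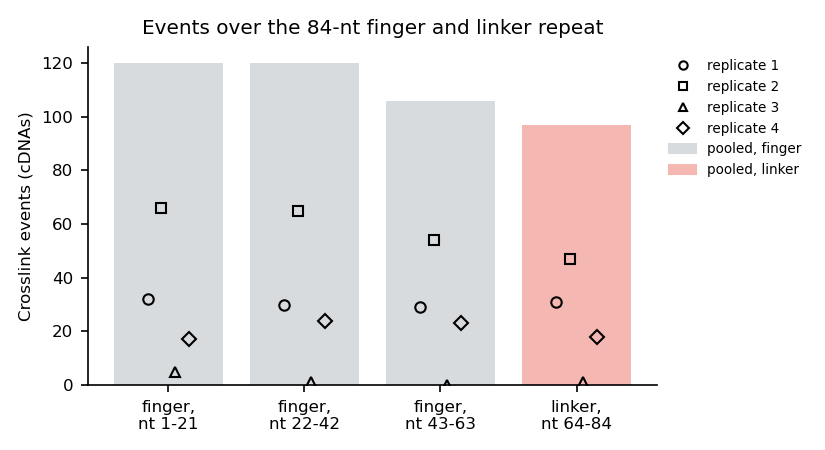
Crosslink events (cDNAs) over the 84-nt repeat of a finger and its linker, in 4 parts of 21 nt; bars are pooled over 2495 repeats and points are libraries. The linker held 97 events and the finger parts 120, 120 and 106.

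One aim of the study was to learn whether PR100 prefers certain short sequences, and the coding sequences of the chromosome 19 ZNF genes carry many GA-rich words. GAAGA occurred 3.26 times per kb of their CDS, against 2.29 in other genes of chromosome 19 and 3.41 in ZNF genes elsewhere. In the same order, GAGGA occurred 2.04 times per kb against 3.58 and 2.94, and GACGA 0.164 against 0.935 and 0.365. GAGAA, the linker word, occurred 8.36 times per kb against 2.09 and 5.72. The GANGA motifs, searched on the transcript strand alone, came to 5.46 per kb of CDS, compared with 6.80 in other genes of chromosome 19 and 6.71 in ZNF genes elsewhere.

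The study picked GAAGA from its own PR100 iiCLIP data, so values for this motif in these libraries are not independent support for it. An event was called near a motif if GANGA began from 5 nt upstream to 30 nt downstream of it. In replicates 1 to 4, 56 of 287, 128 of 540, 18 of 55 and 36 of 218 CDS events were near a motif, or 19.5%, 23.7%, 32.7% and 16.5%. The share of coding bases near a motif in the same genes, weighted by their events, was 17.6%, 16.2%, 16.7% and 17.1%. The log2 ratio was 0.15, 0.55, 0.97 and -0.05 (mean 0.41 ± 0.45, exact permutation p = 0.25, adjusted p = 0.278), so that 3 of 4 libraries lay above 0. Without replicate 3 the mean was 0.22, and without significant clusters 0.23. For GAAGA alone the ratio was 0.16, 0.77, 2.03 and 0.27 (mean 0.81, exact permutation p = 0.13), so that replicate 3 carried much of the mean. In the other genes of chromosome 19 the ratio was 0.26, 0.25, 0.33 and 0.24. The difference between the classes averaged 0.13 ± 0.42 with p = 0.625 and adjusted p = 0.625 in the exact permutation test. It was positive in replicates 2 and 3 and turned to -0.03 without replicate 3. In that library 9 of the 55 CDS events came from the ZNF570 cluster shown above. These lie near GAAGA and so were 9 of the 18 events near a motif.

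Taken singly, GAAGA was near 160 CDS events against 104 from the composition of the same genes (log2 ratio 0.61, above 0 in 4 of 4 libraries, rank 14 of 684 pentamers with at least 20 events from composition). Replicate 3 gave 1.92 and the others 0.16, 0.77 and 0.26. The ratios of single pentamers here had 0.5 added to each count, so they differ slightly from the GAAGA ratios above, which had nothing added. GAGGA was near 94 events against 83.4 (0.17), above 0 in 2 libraries. GAGAA was near 239 events against 268 (-0.17), and below 0 in 3 of 4 libraries. GACGA was too rare to rank, with 4 events near it.

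Crosslinks followed the coding strand. Over 384 kb of CDS with no annotated gene on the opposite strand there were 232, 438, 48 and 185 sense events and 14, 17, 20 and 12 antisense events in replicates 1 to 4. The log2 ratio was 4.05, 4.69, 1.26 and 3.95 (mean 3.49 ± 1.52, above 0 in 4 of 4 libraries, exact permutation p = 0.13, adjusted p = 0.208). Replicate 3 was lowest, and its 20 antisense events lay on 8 positions. ZNF773 held 20 of the 63 antisense events, 11 of them in replicate 3.

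Split where neighbouring genes lie more than 1 Mb apart, the 240 genes formed 16 neighbourhoods. The one nearest the q-arm telomere, from ZNF628 to ZNF446, has 57 genes and held 1203 events (26.3%), at 1063, 914, 811 and 1074 CPM in replicates 1 to 4. The 24 genes from ZNF565 to ZNF573 held 693 events (15.1%), with the highest median, 20 per gene, of the neighbourhoods with more than 2 genes. The 37 genes from ZNF101 to ZNF254, next to the centromere, held 600 events (13.1%) with a median of 6, and the 39 genes from ZNF175 to ZNF331 held 450 (9.82%) with a median of 7. Pooled CDS density was 1.13 events per kb in the neighbourhood from ZNF175 to ZNF331 and 3.36 in that from ZNF628 to ZNF446, and 3′ UTR densities there were 0.689 and 2.14. The pair ZNF574 and ZNF526 had the highest CDS density of the 16, at 10.1 events per kb. These values are pooled and were not tested.

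A chosen list of 19 genes for the silencing machinery of KRAB zinc finger proteins had a median of 128 pooled events, from 22 in CBX1 to 662 in DNMT1. The median was 11 for the zinc finger genes themselves and 15 for the remaining protein-coding genes. The list was not matched for transcript level or gene length, so these medians do not compare binding per transcript. At least 200 events were found in 3 of the 19, against 3.51% of all protein-coding genes. DNMT1, the maintenance DNA methyltransferase, had 145, 339, 21 and 157 events in replicates 1 to 4, with 433 in the CDS. CHD4, the remodelling ATPase of the NuRD complex, had 83, 191, 29 and 96, with 328 in the CDS. TASOR, a subunit of the HUSH complex, had 59, 106, 16 and 35. TRIM28, the corepressor that binds the KRAB domain, is itself on chromosome 19 and had 33, 82, 0 and 50 events, 126 of the 165 in the CDS, or 48.8 pooled events per kb of CDS. ZNF146 had 28.4, the most among the zinc finger genes named here.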

How the data were processed

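The 4 position lists of PR100-FLAG libraries and the pooled lists of positions and clusters were used. The deposited values are counts: each position carries its number of unique cDNAs, and each cluster the total of its positions. PCR copies were removed by random barcode, STAR (version not given in the sources used here) aligned the reads to GRCh38 and Gencode 27, reads with a single genomic match were retained, and iCount called significant positions, all by the authors. The pooled list equalled the sum of the libraries.

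Positions were counted on the gene strand with GENCODE 44 of the same build, in the order CDS, 3′ UTR, 5′ UTR, other exon, intron, over all transcripts of a gene. An event in overlapping genes was counted for each; 83.3% of events in the chromosome 19 ZNF genes lay in no other gene. Fingers were found in translated canonical transcripts as a pair of cysteines 2 to 4 residues apart, 12 residues, and a pair of histidines 3 to 5 residues apart. The transcript sequences of all 240 genes equalled the genome.

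Ratios were computed per library from summed events and lengths and tested over libraries with an exact permutation test of their signs (two-sided), with Benjamini-Hochberg adjustment over 10 tests. Medians over genes and the ratios of single ranked pentamers had 0.5 added to each count. The replicates may be technical, in which case p-values measure only the spread between these libraries, and limits from counts of 0 cover counting error only. Depth was 334057, 604816, 125694 and 179636 events. Named genes were the 12 with the most events, the 8 with the most CDS events, the densest CDS among those with at least 30 CDS events, the 5 with the most 3′ UTR and intron events, every gene with at least 200 events and the 5 with the most cDNAs in clusters. The genes, lists and tests were chosen with earlier results of these data known. The ratio of region densities was tested on simulated events in 232 of the gene models, and 3 ratios were recovered within 0.15 on the log2 scale; the finger, linker, motif and strand ratios were not simulated. Alternatives changed the counting of positions, overlapping genes, clusters, transcripts, unique stretches, minimums, motifs and libraries. Python 3.11.15, numpy 2.4.6, pandas 2.3.3 and scipy 1.17.1 were used.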

Additional observations from a re-analysis of the deposited data

Results flagged for a closer look

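In each of 31 sets of 4 libraries (11 ratios and shares and 20 named genes), the highest or lowest library was compared with the others by its gap relative to the range. Chance alone marks about 1 in 20 such sets. ZNF235 was marked for its level of 77.8 CPM in replicate 1, against 52.9, 55.7 and 55.7 in the others, and all 26 of its events in that library were intronic. ZNF865, the gene with the most CDS events, was marked for its low level of 12 CPM in replicate 1, which is 4 events, against 38.0, 39.8 and 39.0. The cause was not tested.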

How the results depend on the processing

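Of 131 alternatives over 14 results, 119 kept the direction of a ratio, or left a count within 1.5 times or a share within 1 SD. The ratio of the finger array to the rest of the CDS turned to 0.08 with bases in no other gene, and the GANGA difference between the chromosome 19 ZNF genes and their neighbours to -0.03 without replicate 3, with a range of -0.03 to 0.28 over the libraries left out. The 1 gene with at least 200 events became 0 with each position counted once and at a minimum of 400, and 4 at a minimum of 100, and ranged from 0 to 1 with a library left out. The 11 genes with a cluster of at least 10 cDNAs became 2 at a minimum of 20 cDNAs and 4 with single-library clusters. The 4 genes with denser CDS in every library became 1 at a minimum of 50 events and ranged from 1 to 11 with a library left out. The shares of all protein-coding genes under these settings are not given. The causes were not tested. The linker ratio with bases in no other gene could not be computed, since replicate 3 had 0 linker events there. With 3 libraries the smallest p is 0.25. Replicate 3 had the fewest CDS events in these genes, 55 on 18 positions.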

Other observations

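Beyond the pentamers named in the report, the 5 with the highest ratio near CDS events of the chromosome 19 ZNF genes were TCCCT (56 events against 30.2 from composition, log2 0.88), ACACG (45 against 24.7, 0.85), GAGAT (58 against 34.1, 0.76), GAATA (47 against 28.1, 0.73) and CATAG (38 against 22.8, 0.73). They were picked as the highest of 684, and none lay above 0 in all 4 libraries. For GAGAT, 19 of the 58 events came from replicate 3.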
